A study of Caenorhabditis elegans with 2 samples.

Results

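The genes described here are 8 protein-coding genes of the heterochronic pathway, which times the stages of larval development in Caenorhabditis elegans: lin-14, lin-28, lin-46, lin-66, hbl-1, lin-41, lin-42 and lin-29. They were picked by name from 19973 protein-coding genes. The measurement was of the binding of UNC-86, which belongs to the POU homeodomain family of transcription factors and acts in neurons, by chromatin immunoprecipitation followed by sequencing (ChIP-seq) in whole hermaphrodite L1 larvae of strain OP476. All worms carried the mutation unc-119(tm4063) and the integrated transgene wgIs476, which adds UNC-86 with a GFP tag at its C terminus and an antibody to GFP was used, as the sample descriptions state. Other label fields call the tag GFP-FLAG and eGFP, and enter unc-86 as the antibody. Which of these entries applies was not tested. The larvae had been starved after bleaching to synchronize them and were collected 6 hours later. There was 1 group of 2 biological replicates, from 1 transgenic line, so no conditions were compared and no test was made. Whole worms were used, so strong binding in few cells and weak binding in many cannot be told apart.

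The deposited data were lists of peaks, places of enriched reads, each with a summit and a signal value that the authors assigned. The optimal list held the 2987 peaks that passed the authors' reproducibility procedure, with signals of 66.4 to 1708 and a median of 127. They were the 2987 strongest of the 20768 peaks in the list from the pooled replicates, whose lowest signal was 19.0. The lists of replicate 1 and replicate 2 held 29587 and 25172 peaks, background included. Signals rank peaks within a list, and between the replicate lists only their ratio, set against the median ratio of all optimal peaks, is used. The window of a gene ran from 3000 bp upstream of its 5′ end to its 3′ end on WBcel235, the assembly behind the ce11 build, and a peak was given to every gene whose window held its summit. The window of unc-86 itself held 4 optimal peaks, the strongest with a signal of 356, ranked 311. Binding there and extra copies of the gene in the transgene cannot be told apart, so these peaks do not identify the protein pulled down.

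In the heterochronic pathway, regulators that specify early stages are turned down in sequence so that later fates can follow. LIN-14, a nuclear protein that binds DNA, acts in the fates of the first larval stage and is repressed by the microRNA lin-4. LIN-28, an RNA-binding protein that blocks maturation of the let-7 microRNA, and HBL-1, a zinc finger protein of the Hunchback family, act in the fates of the second stage. LIN-46 acts downstream of lin-28, and LIN-66 is a negative regulator of lin-28 after transcription. LIN-41, an RNA-binding TRIM-NHL protein, is a target of let-7 and holds back LIN-29, the zinc finger transcription factor of the switch from larva to adult. LIN-42 is the worm relative of the Period clock proteins.

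To show what lies under the binding, the bases around the strongest optimal summit of lin-14, lin-42, lin-46 and lin-66 are given, 75 bp either side, 5′ to 3′ on the strand of the gene, from the RefSeq WBcel235 genome. Capitals mark matches on either strand to the 6 short sequences searched. GAGAGA, which reads TCTCTC on the other strand, is a GA repeat. AATGCAT is bound by UNC-86 with its partner MEC-3, and its core is ATGCAT. The octamer of POU proteins is ATGCAAAT. Many homeodomain proteins bind the core TAATTA, and the E box is CACGTG. The first lies in the first intron of lin-14 (chrX:11467386-11467536, plus strand), the second in the first intron of the long transcripts of lin-42 (chrII:1246984-1247134, minus strand), the third upstream of lin-46 (chrV:12967916-12968066, plus strand) and the fourth upstream of lin-66 (chrIV:13887655-13887805, plus strand).
lin-14: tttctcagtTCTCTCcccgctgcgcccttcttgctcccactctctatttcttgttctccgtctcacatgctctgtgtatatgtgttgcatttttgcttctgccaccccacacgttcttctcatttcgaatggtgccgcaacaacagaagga
lin-42: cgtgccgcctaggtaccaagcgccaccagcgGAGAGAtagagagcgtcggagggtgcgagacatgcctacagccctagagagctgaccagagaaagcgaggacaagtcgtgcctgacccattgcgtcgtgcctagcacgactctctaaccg
lin-46: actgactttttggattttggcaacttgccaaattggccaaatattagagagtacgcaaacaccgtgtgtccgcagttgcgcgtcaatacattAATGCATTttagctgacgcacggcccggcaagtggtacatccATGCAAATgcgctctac
lin-66: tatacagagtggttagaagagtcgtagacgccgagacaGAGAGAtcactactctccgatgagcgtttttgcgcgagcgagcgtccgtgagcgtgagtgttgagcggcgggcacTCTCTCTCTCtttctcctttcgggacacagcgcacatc

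Those at lin-14, lin-42 and lin-66 carry GAGAGA, and the one at lin-66 also has a longer TC run. The one at lin-46 has no GAGAGA and holds both AATGCAT and the octamer ATGCAAAT. Neither TAATTA nor the E box was in any of the 4. The strongest peaks of lin-28 and lin-41, whose bases are not shown, have none of the 6 sequences, so GAGAGA was at 3 of the 6 strongest peaks.

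UNC-86 peaks lay at most of the timing genes. An optimal peak was in the window of 6 of the 8 genes (75%), against 17.9% of all protein-coding genes. The 6 were lin-28, lin-66, lin-41, lin-14, lin-42 and lin-46, with 12 optimal peaks between them, and hbl-1 and lin-29 had none. Among the 2987 strongest peaks of replicate 1 and of replicate 2, 5 and 6 of the 8 genes had one, against 17.6% and 18.1% of all genes. In the pooled list, weak peaks included, all 8 had a peak, against 61.9% of all genes.

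Long genes offer more room for a peak, and 4 of the 8 genes were in the tenth of protein-coding genes with the longest windows. Of the genes with the longest windows 35.9% had an optimal peak. With all genes cut into 10 equal groups by window length, the share in the group of each timing gene was 28.5% when averaged over the 8. Per length, the 8 windows, 105.4 kb in all, held 0.114 optimal peaks per kb, against 0.0345 per kb over the windows of all protein-coding genes. Since the 8 genes were not picked blind to these data, these shares are a description and were not tested.

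**Figure D1:**
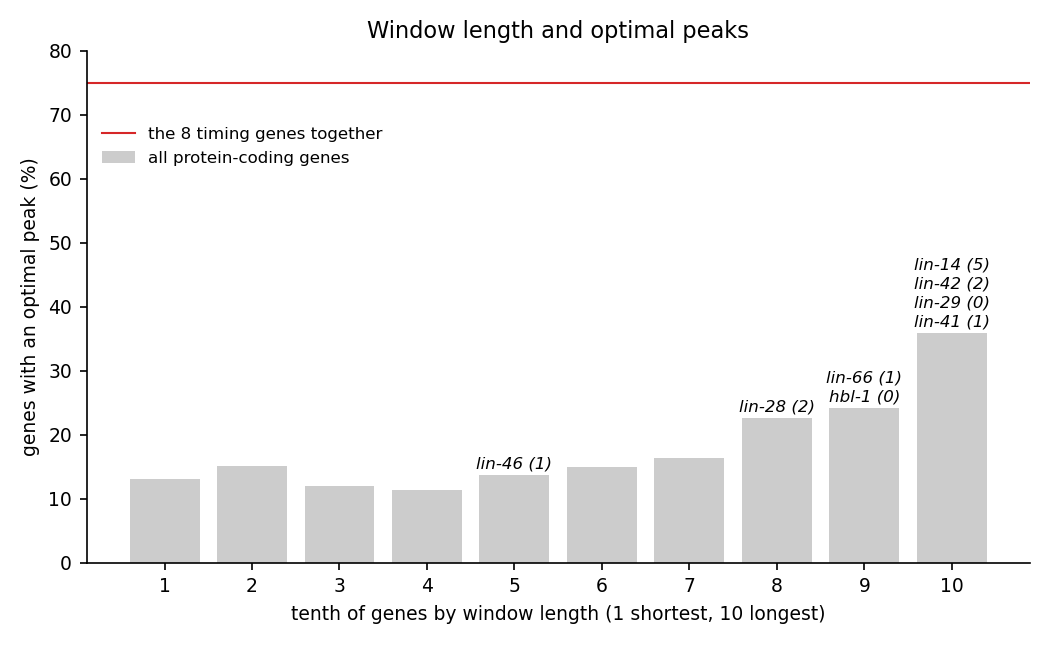
Share of protein-coding genes with an optimal UNC-86 peak (y axis, percent) by window length (x axis, 10 equal groups of genes from shortest to longest, grey bars), with each timing gene named above its own group and its number of optimal peaks in brackets. The grey bars reach 35.9% at the longest windows, and the red line marks the 75% of the 8 timing genes together.

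lin-14 (WBGene00003003, X, 11465560 to 11485871, plus strand) had 5 optimal peaks, the most of the 8 genes. Windows with 5 or more were found at 12 protein-coding genes (0.0601%), all in the tenth with the longest windows, where they made up 0.601%. The strongest, with a signal of 237 and rank 624, lay 1901 bp inside the gene in its first intron, where the annotation also has the non-coding gene T25C12.7. It had 106 in replicate 1 and 137 in replicate 2, ranks 617 and 578. In replicate 1 the peak of lin-14 at 7810 bp was higher, with 117 and rank 529.

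Intron 3 of the longer transcript of lin-14, 11174 bp long, held 3 of the 5. Their summits lay 6585, 7810 and 11519 bp from the 5′ end, with signals of 128, 231 and 82.6. The peak at 7810 bp had 117 in both replicates, but its summits there were 169 bp apart, the widest gap of the 12 peaks. Only the strongest overlapping peak of each replicate was taken. Replicate 2 had another at 7931 bp, with a signal of 88.7, nearer to the summit of replicate 1 at 7896 bp. The pooled list also has a weaker peak at 8010 bp with a signal of 52.0. The last of the 3 lay 3282 bp upstream of the 5′ end of the shorter transcript. The fifth peak of the gene lay 77 bp upstream of the 5′ end, with a signal of 83.1, 38.1 in replicate 1 and 37.8 in replicate 2. A further 8 pooled peaks below the optimal list, with signals of 19.2 to 52.0, were spread from 2311 bp upstream to 13196 bp inside the gene.

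lin-28 (WBGene00003014, I, 8407630 to 8410804, minus strand) had the strongest peak of the 8 genes. Its summit at 8409912 lay 892 bp inside the gene and 8 bp inside the 5′ end of its second transcript, in an exon but outside the coding sequence there and in the first intron of the other transcript. The signal was 473, rank 174 of 2987, with 228 in replicate 1 and 242 in replicate 2, ranks 149 and 201. A second optimal peak lay 589 bp upstream, with a signal of 199, 94.3 in replicate 1 and 104 in replicate 2. Both were also in the window of the neighbouring gene F02E9.7, though the nearest annotated 5′ end was that of lin-28.

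lin-66 (WBGene00001562, IV, 13888079 to 13893986, plus strand) combined 1 strong peak with a run of weak ones. The strong peak lay 349 bp upstream, with a signal of 379 and rank 266, and had 163 in replicate 1 and 216 in replicate 2. The other 10 pooled peaks, at 19.9 to 57.7, fell below the optimal list, and 9 of them lay from 375 to 5411 bp inside the gene. Windows with 11 or more pooled peaks were those of 2 of the 8 genes, lin-66 and lin-14, against 0.526% of all genes. That share was not broken down by window length, and the cut of 11 is the number at lin-66 itself. Other genes of the timing pathway also reached it, among them dre-1 with 12. Per length, lin-66 had 1.23 pooled peaks per kb, against 0.558 at lin-14 and 0.214 over all protein-coding genes. The highest of the weak ones, 57.7 at 5212 bp, had rank 2397 in replicate 2 and rank 16679 in replicate 1, so the replicates placed it far apart.

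lin-46 (WBGene00003031, V, 12968855 to 12970730, plus strand) had 1 optimal peak near the lower end of the list, 864 bp upstream, with a signal of 70.2 and rank 2830. It had 23.8 in replicate 1, rank 4049, and 46.9 in replicate 2, rank 2398, so it was among the 2987 strongest in replicate 2 alone. The summit lay 9 bp from the 5′ end of R186.8, the nearest protein-coding gene, and was also in the window of R186.3. Counted by nearest 5′ end only, lin-46 had no peak and 5 of the 8 genes had one, against 12.3% of all protein-coding genes.

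hbl-1 (WBGene00001824, X, 5822142 to 5827755, plus strand) and lin-29 (WBGene00003015, II, 11917642 to 11935343, minus strand), both genes for zinc finger transcription factors, had no optimal peak. hbl-1 had 2 pooled peaks, of 26.3 at 267 bp and 23.6 at 4933 bp inside the gene, both overlapped by a peak in each replicate. lin-29 also had 2, of 26.3 near its 3′ end and 22.4 at 11369 bp. The replicates had little in common at lin-29: 1 of 8 peaks of replicate 1 and 1 of 6 of replicate 2 were overlapped by a peak of the other. At hbl-1 they shared 4 of 6 and 4 of 5. The nearest optimal peak outside the window lay 7047 bp beyond its upstream edge at hbl-1, with a signal of 92.7. At lin-29 it lay 21012 bp beyond that edge, with a signal of 121. The edge is itself 3000 bp upstream of the gene.

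lin-41 (WBGene00003026, I, 9334800 to 9342496, minus strand) had 1 optimal peak, 1485 bp upstream, with a signal of 245 and rank 590. It had 132 in replicate 1 and 114 in replicate 2, ranks 429 and 772. No other optimal peak was in its window, and the pooled list has 1 more peak there, of 20.7, in an exon.

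lin-42 (WBGene00018572, II, 1233236 to 1252359, minus strand), with 7 transcripts from 5 separate 5′ ends, had 2 optimal peaks, both in introns. The stronger lay 5300 bp inside the gene in an intron of 8173 bp, 3024 bp upstream of the next 5′ end, where the non-coding gene F47F6.15 is also annotated. Its signal was 185, rank 892, with 82.9 in replicate 1 and 99.8 in replicate 2. The weaker lay at 14279 bp, 1111 bp upstream of another 5′ end, with a signal of 86.4, and had 50.2 in replicate 1 and 38.7 in replicate 2. The bases around it were 71.5% G or C, the highest share of the 12 peaks.

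**Figure D2:**
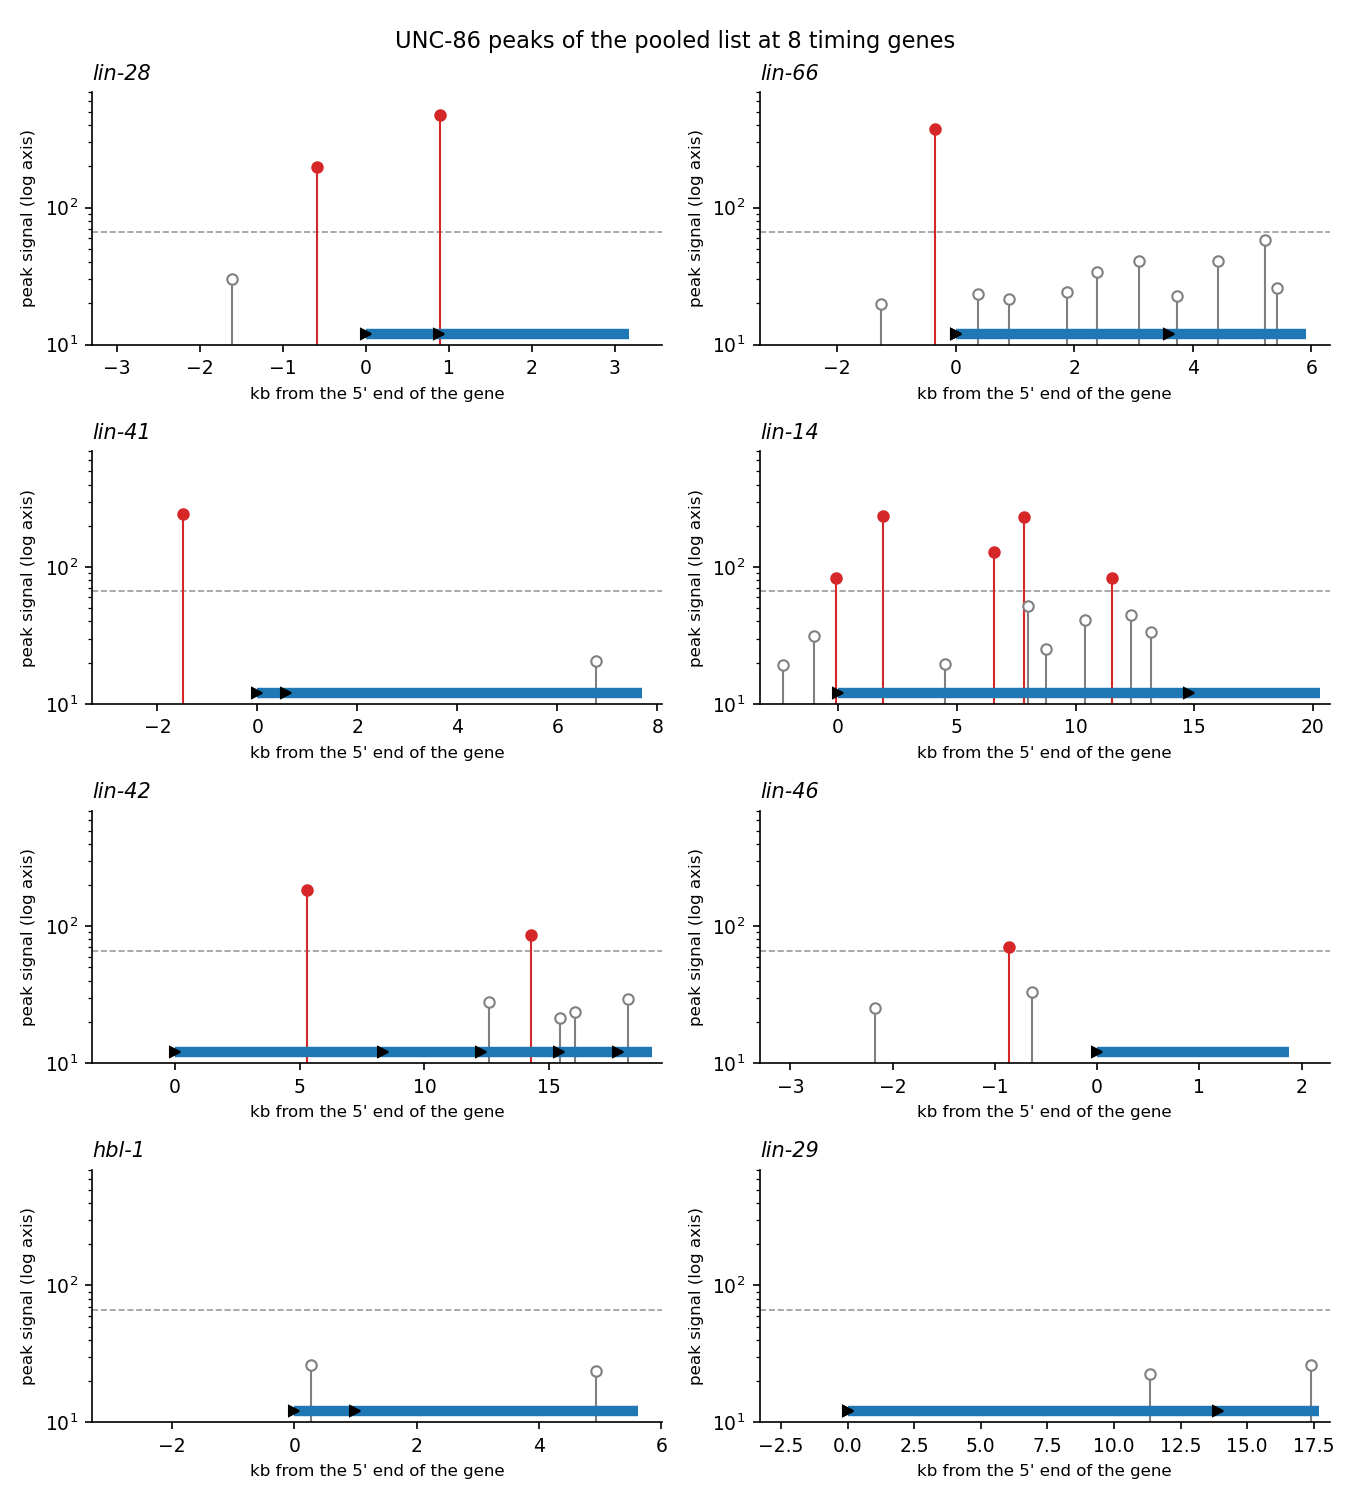
Summits of all 42 pooled peaks in the windows of the 8 genes, by distance from the 5′ end of the gene in kb (x axis, direction of transcription to the right) and signal (y axis, log scale). Filled red points are the 12 optimal peaks and open grey points those below the optimal list, whose lowest signal, 66.4, is the dashed line; blue bars are gene bodies and black triangles annotated 5′ ends. The red points of lin-14 and lin-42 lie mostly inside the gene, and hbl-1 and lin-29 have grey points only.

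Ordered by the strongest pooled signal, the 8 genes ran lin-28 (473), lin-66 (379), lin-41 (245), lin-14 (237), lin-42 (185), lin-46 (70.2), hbl-1 (26.3) and lin-29 (26.3). Of the 7 pairs of neighbours in this order, 5 stood the same way round in both replicates as in the pooled list. lin-41 was above lin-14 in replicate 1 and below it in replicate 2. The strongest peak of lin-14 lay 7896 bp inside the gene in replicate 1 and 1941 bp inside it in replicate 2. lin-29 was above hbl-1 in both replicates, the reverse of the pooled list, where both round to 26.3. The drop from lin-42 to lin-46 and from lin-46 to hbl-1 was seen in both replicates. The strongest signals at hbl-1 were 14.6 in replicate 1 and 15.2 in replicate 2, and at lin-29 they were 16.7 and 20.1. At lin-29 the peak of replicate 1 lay 2976 bp upstream of the gene and that of replicate 2 lay 2210 bp inside it. At hbl-1 the peak of replicate 1 lay 2054 bp upstream and that of replicate 2 lay 269 bp inside.

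**Figure D3:**
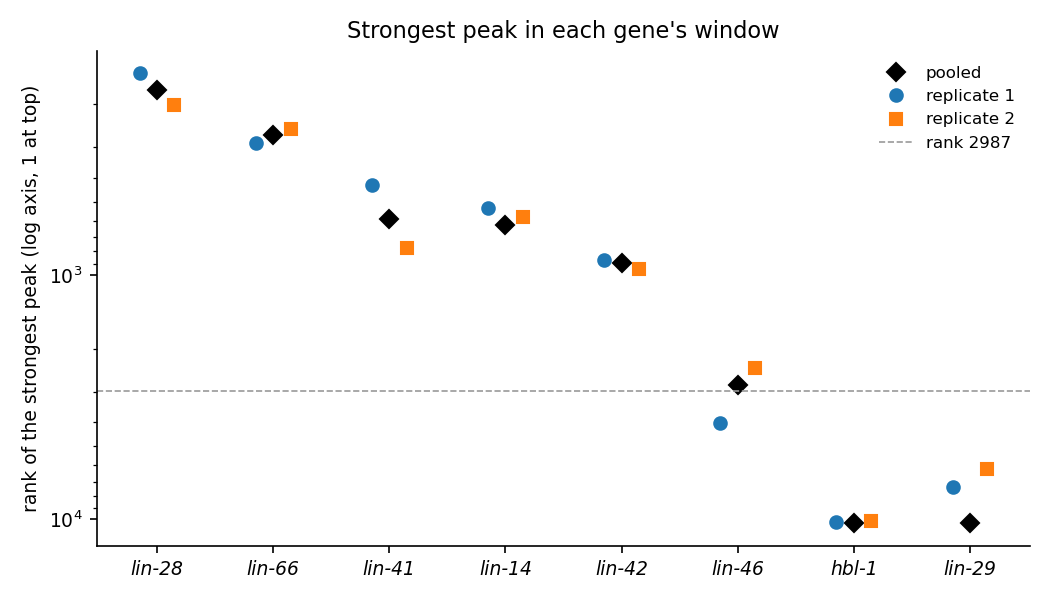
Rank of the strongest peak of each gene (y axis, log scale, rank 1 at the top) in the pooled list (black diamonds), replicate 1 (blue circles) and replicate 2 (orange squares), with the 8 genes along the x axis. The dashed line is rank 2987, the length of the optimal list; lin-46 lies on both sides of it, and hbl-1 and lin-29 lie below it in all 3 lists.

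The optimal list was itself chosen from these 2 replicates, so its overlap with their lists is a description and no check. Of the 12 optimal peaks, 9 overlapped one of the 2987 strongest peaks of both replicates, against 84.2% of all optimal peaks. The other 3 were the peak of lin-46, at rank 4049 in replicate 1, and 2 of lin-14, those 77 bp upstream and 11519 bp inside, at ranks 2996 and 3069 in replicate 2. The signal in replicate 2 over that in replicate 1, divided by the median of this ratio over all optimal peaks, 1.26, was 0.610 to 1.56 at the 12 peaks. Over all optimal peaks, 5% lay below 0.638 and 5% above 1.63. Below the median ratio were 9 of the 12. The weaker peak of lin-42 was at the low end and that of lin-46 at the high end. The summits of the replicates were a median of 17.5 bp apart at the 12 peaks and 16 bp apart at all optimal peaks.

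**Figure D4:**
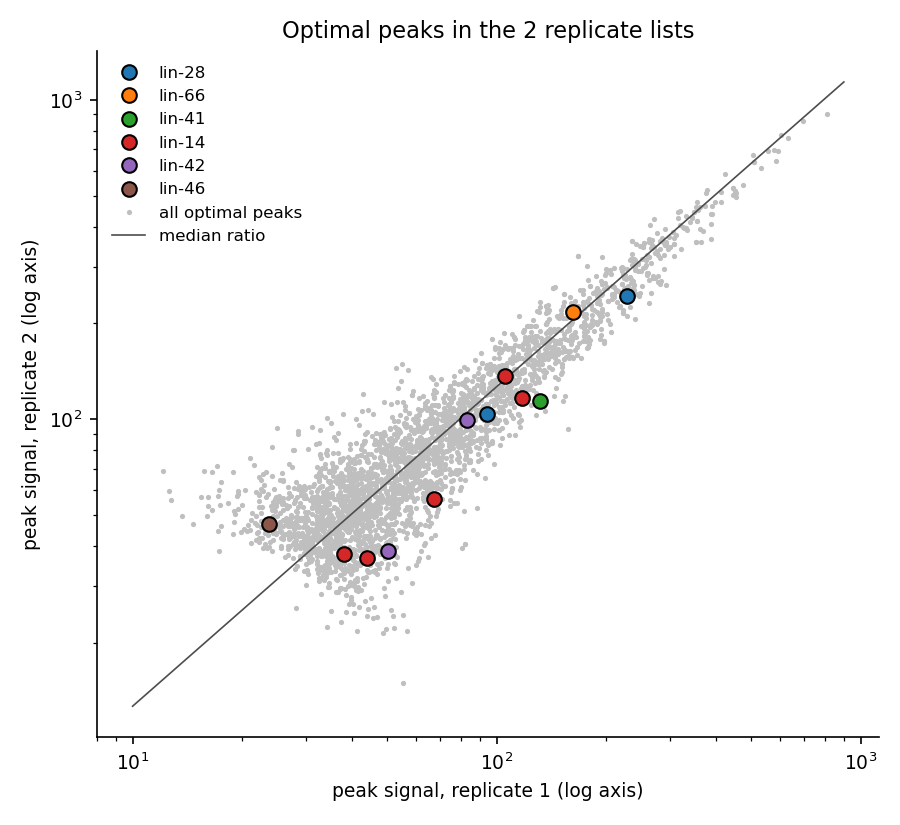
Signal of the optimal peaks in replicate 1 (x axis) and replicate 2 (y axis), both on log scales, with the 12 peaks of the timing genes in colour over all optimal peaks in grey. The line is the median ratio of 1.26; 9 of the 12 coloured points lie below it, among them both of lin-28, both of lin-42, lin-41 and 4 of lin-14, and the brown point of lin-46 lies above it.

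By signal, 8 of the 12 peaks were above the median of the optimal list, and their own median was 192. A peak above that median was in the windows of 5 of the 8 genes, against 10.5% of all genes. With 2 or more optimal peaks were 3 of the 8, lin-14, lin-28 and lin-42, against 2.78% of all genes. In group 10 of 10 by window length, the longest, which holds lin-14 and lin-42, 10.96% of genes had 2 or more. In group 8, that of lin-28, it was 3.20%. The share of 10.5% was not broken down by window length.

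The peaks lay both inside the genes and upstream of them, with a share inside near that of genes with long windows. Of the 12, 7 were inside (58.3%), 6 of them in introns of every transcript that spans them, and 5 were upstream. Over all protein-coding genes 20.9% of 4295 pairs of a peak and a gene had the summit inside, and in the tenth with the longest windows it was 51.1%. lin-14 gave 4 of the 7, and without it 3 of 7 peaks were inside. The median distance to the nearest protein-coding 5′ end was 1298 bp at the 12 peaks and 519 bp at all optimal peaks. An annotated 5′ end of their own gene lay within 1500 bp of 7 of the 12. For 11 of the 12 the nearest protein-coding 5′ end was that of the timing gene, the exception being lin-46.

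Within 75 bp of the summit, GAGAGA on either strand was found at 7 of the 12 peaks, against 36.3% of all optimal peaks and 7.50% of the flanks of all optimal peaks, taken 500 bp to either side. lin-14 gave 4 of the 7, both peaks of lin-42 and the peak of lin-66 the others, and lin-28, lin-41 and lin-46 had none. The matches were mostly away from the summit itself: within 30 bp, 1 of the 12 had it, against 17.1% of all optimal peaks. Runs of GA or TC of 10 bp or more were at 2 of the 12, lin-66 (12 bp) and the weaker peak of lin-42 (10 bp), against 5.76% of all.

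AATGCAT was at 1 of the 12, the peak of lin-46 shown above, against 3.05% of all optimal peaks and 1.93% of their flanks. ATGCAT, which lies within AATGCAT, was at 2, lin-46 and the lin-14 peak at 7810 bp, against 5.16%. TAATTA was at none, against 4.52%, and CACGTG at none, against 4.55%. ATGCAAAT, searched after the bases at lin-46 had been seen, was at that peak alone, against 1.24% of all optimal peaks and 1.27% of their flanks. Around the summits the 12 peaks had a median of 50.7% G or C (range 40.4% to 71.5%), against 45.0% for all optimal peaks, and 3 of the 12 were above the 95th percentile of all, 57.0%.

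Of 28 other genes that act in or with the timing pathway, 14 had an optimal peak (50%). Among the 22 of them that code for proteins it was 12 (54.5%), against 17.9% of all protein-coding genes. All 22 had windows longer than the median of protein-coding genes, 5027 bp, the shortest being 5668 bp. With a peak were 24.1% of genes in group 9 of 10 by window length and 35.9% in group 10, the longest. No share matched for window length was computed for the 22, so the 17.9% may overstate the contrast. nhl-2, for a TRIM-NHL cofactor of microRNAs, had a peak 834 bp upstream with a signal of 1274, rank 6, and 579 in replicate 1 and 698 in replicate 2. The annotated 5′ end nearest to it was that of tag-340. puf-9, for a Pumilio RNA-binding protein, had 881 (rank 23), and ain-1, for a GW182 protein, had 476 (rank 171). ain-2, for the second GW182 protein, had 279 in an intron, and xrn-2, for a 5′ to 3′ exoribonuclease, had 277, nearer to the 5′ end of Y48B6A.1.

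let-7, the microRNA that represses lin-41, had a peak 1855 bp upstream of its annotated 5′ end with a signal of 221 (rank 690), with 91.9 in replicate 1 and 124 in replicate 2, and the nearest protein-coding 5′ end was that of C05G5.2. myrf-1, for a transcription factor, had 195, and daf-12, for the nuclear receptor that links timing to dauer formation, had 191 in an intron. Among the 14 without an optimal peak were the microRNAs lin-4, mir-48 and mir-241, and dre-1, for an F-box protein. lin-4 had 2 peaks in the pooled list.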

How the data were processed

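UNC-86 ChIP-seq of 2 biological replicates was used as peak lists. Each replicate's list was made from its alignment and a control, the pooled list from both, and the optimal list by an irreproducible discovery rate procedure, per the file listing deposited with the samples. The control was not analysed here. The deposited signal values come from the authors and served to describe and rank peaks within a list and, between replicates, as a ratio over the median ratio. Their scaling, the aligner, the peak caller and the thresholds were not given in the sources used here. Peak lists hold no read counts, so depth is unknown and no interval is given.

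Peaks on ce11 were set against WBcel235 gene models (Ensembl release 115), with no conversion between builds. All peak ends lay within that assembly's chromosome lengths. A peak of a replicate matched an optimal peak if they overlapped by at least 1 bp, and the strongest such peak was taken. Other microRNAs were matched by name and let-7 by coordinates. The window and sequence steps were tested on simulated data with known answers. There the overlap step was checked only for finding a peak in its own list. The nearest-end step was checked only for giving a gene for each peak. Computations used Python 3.11.15, numpy 2.4.6, pandas 2.3.3 and matplotlib 3.10.9.

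All 8 members are named, with the 8 strongest other timing genes, up to 4 without a peak in list order, the genes nearest to or holding a summit, and unc-86. Sequences were shown for the strongest peak of members by that rule, which leaves out genes on chromosome I, here lin-28 and lin-41. The members, the list of other timing genes and the sequences searched were chosen with earlier results of these data known. Alternatives changed the window, the assignment, the list, the replicate, the overlap and the summit window.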

Additional observations from a re-analysis of the deposited data

How the results depend on the processing

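Of 50 alternative values, 44 stayed within 1.5 times and 6 moved further. All were counts or shares, so none could change direction. Counting only summits up to 1500 bp before or 500 bp after an annotated 5′ end left the 6 timing genes but 7 of their 12 peaks. By that rule 9 in place of 14 of the other timing genes had a peak, and 13.1% of all protein-coding genes. With GAGAGA sought within 30 bp of the summit, 1 of 12 peaks had it in place of 7. ATGCAT then fell at 1 in place of 2, and ATGCAAAT at 0 in place of 1. Leaving out 1 replicate at a time, the strongest peaks of the other replicate were counted, as many as the optimal list holds. They numbered 11 to 12 in the windows of 5 to 6 of the 8 genes, and 14 to 15 of the other genes had one. Of the 12 optimal peaks, 11 overlapped such a peak in replicate 1 and 10 in replicate 2. Those counted in replicate 2 included a lin-66 peak at 5222 bp that is not optimal. They also included lin-14 peaks at 7727 and 7931 bp, which overlap the same optimal peak. In the order of signal, 4 to 6 of the 8 genes kept their place. lin-46 was the gene lost without replicate 2, above the median signal and by nearest 5′ end. At 50% reciprocal overlap, 6 in place of 9 of the 12 peaks were found in both replicates. Those lost were narrow peaks, 120 and 127 bp wide at lin-14 and 190 bp wide at lin-66. With summits within 100 bp as the rule, the count stayed at 9. Of the 12, 8 had a signal above the median. The order by single replicates, ATGCAAAT and the values without lin-14 were added after the data were seen. No paired analysis was possible because there was 1 group and no test. Without read counts the depth behind a weak peak is unknown.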
